A study of Mus musculus with 8 samples.

Results

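The gelsolin superfamily was examined as a set of 8 genes (Gsn, Scin, Capg, Avil, Vil1, Vill, Svil and Flii), matched by symbol among the 37979 genes of the expression table. Gsn was chosen by its measured values in these libraries, so they are described and not tested between the groups. The other 7 genes were selected as its relatives. All 8 were above 0 FPKM (fragments scaled by transcript length in kilobases and by the mapped fragments of the library) in at least 1 library, as were 27414 genes in all. Pericytes (PDGFRβ+tdTomato− cells) and smooth muscle cells (SMCs, PDGFRβ+tdTomato+ cells) had been sorted from the hindlimb muscles of young adult Ai14+/−;SM22α-Cre+ mice of both sexes. All animals carried both alleles. The SM22α promoter drives Cre, which switches on the red fluorescent protein tdTomato permanently, so a tdTomato+ cell may have used the promoter only in the past. There were 4 bulk RNAseq libraries of each population, numbered 1 to 4, and each was pooled from multiple sorts. Sorted cells were DAPI low and negative for CD31 and CD45, and the PDGFRβ+tdTomato− gate can also hold other cells with PDGFRβ, such as fibroblasts.

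Gelsolin superfamily proteins are built from repeated gelsolin-like domains that bind actin, many of them in response to calcium. Gelsolin and adseverin (Scin) cut actin filaments and cap the fast-growing barbed end, whereas CapG caps filaments without cutting them. Villin (Vil1), advillin (Avil) and villin-like protein (Vill) carry an additional headpiece domain and are best known from microvilli and specialised epithelial or sensory cells. Supervillin (Svil) ties actin and myosin II to the membrane, and flightless I (Flii) joins gelsolin-like domains to leucine-rich repeats and also acts in the nucleus. Gelsolin itself exists as a cytoplasmic and a secreted plasma form from the same gene, and is abundant in fibroblasts and other connective tissue cells.

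The sort was checked on its own genes and on marker lists. Tagln, which encodes SM22α, had 165 to 551 FPKM in pericyte libraries and 500 to 1569 FPKM in SMC libraries, so the groups overlapped. Of 7 smooth muscle markers, 0 were higher in every SMC library and 0 in every pericyte library. Ptprc, which encodes CD45, had 80.6 to 230.3 FPKM in pericyte libraries and 4.34 to 11.9 FPKM in SMC libraries, and Pdgfrb had 3.21 to 17.6 FPKM and 15.6 to 91.5 FPKM. Pecam1, which encodes CD31, had 24.96 to 59.7 FPKM in pericyte libraries and 102 to 301 FPKM in SMC libraries, and 6 of 7 endothelial markers were higher in every SMC library (sum 90.8 to 160.2 FPKM against 412 to 1125 FPKM). The summed level of 5 T cell markers was 1436 to 2310 FPKM in pericyte libraries and 18.6 to 32.2 FPKM in SMC libraries, and that of 5 B cell markers was 761 to 1966 FPKM and 8.84 to 30.1 FPKM. All 9 pericyte markers were measured, but for none did all pericyte values exceed all SMC values, and their sum was 63.8 to 141.5 FPKM in pericyte libraries against 165 to 468 FPKM in SMC libraries. Of 9 fibroblast markers, 8 were higher in every SMC library, and the ninth, Dcn, was listed at 0 there. Summed over all genes, pericyte replicate 2 had 1190435 FPKM and the other 7 libraries 656405 to 782014 FPKM. The groups are named below by their sort. In bulk libraries, fewer cells of a type and less RNA per cell cannot be told apart.

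Gsn was the only member whose groups did not overlap. Its gene spans bases 35111927 to 35163420 of chromosome 2 (NCBI Build 37, used throughout), plus strand, and is annotated with 6 transcripts, of which 4 are protein coding. The pericyte libraries 1 to 4 had 849.5, 406, 749.8 and 1143 FPKM. Each of the 4 SMC libraries was listed at 0. Replicate 2 was the lowest pericyte library, and the highest was 2.82 times as high. Every pericyte library thus lay above every SMC library, as did 12.1% of the genes tested, and nothing is read from this for Gsn because the pattern chose it. Since every SMC value is 0, no fold change is given. Gsn ranked between 99 and 502 among all genes of a pericyte library (median rank 134.5), with the rank of 502 in replicate 2.

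The value of 0 for Gsn stands beside other such values in the table. In all, 93 genes had 0 FPKM throughout the SMC libraries but not in any pericyte library, and 63 showed the opposite. Only 5 of the first kind had a pericyte mean of at least 100 FPKM, namely Gsn, Dcn, Sbpl, Ighv9-2 and Ighv8-12, and 3 of the second kind had an SMC mean that high, namely Cd74, H2-Aa and H2-Ab1. Ubb, a ubiquitin gene of every cell, was itself listed at 0 throughout. A value of exactly 0 in FPKM can be a failed estimate, so Gsn is only said to be listed at 0 in SMCs. No gene is annotated as overlapping Gsn. Of the genes around it, Rab14 had 78.8 to 142.5 FPKM and Stom 21.8 to 128 FPKM over the 8 libraries, and Gm13605, a noncoding gene between Rab14 and Gsn, was listed at 0 in each.

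**Figure D1:**
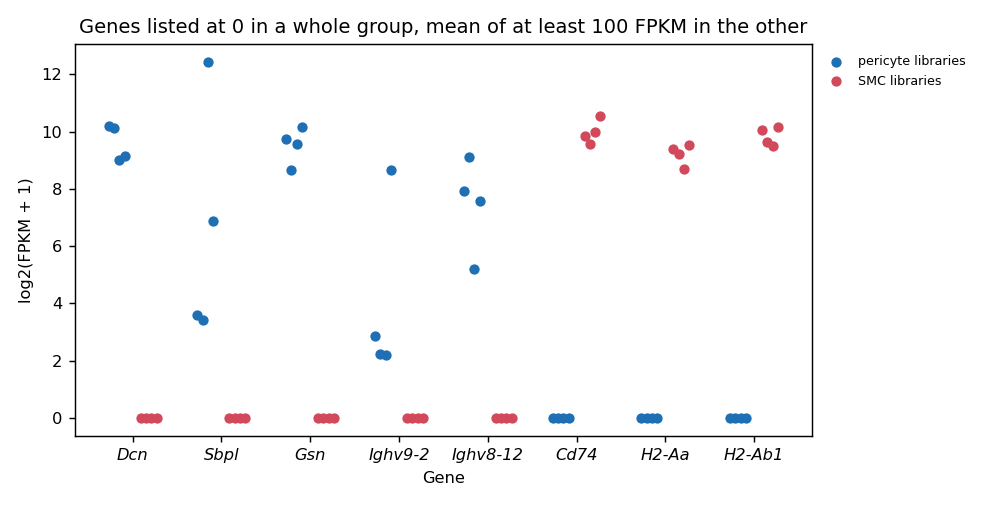
Expression, as log2(FPKM + 1), of the 8 genes that are 0 throughout one group with a mean of at least 100 FPKM in the other group; each point is a library, blue for pericytes and red for SMCs. Gsn shares with Dcn the combination of at least 405.6 FPKM in each pericyte library and 0 in each SMC library, whereas Cd74, H2-Aa and H2-Ab1 show the reverse.

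Dcn, which encodes the fibroblast proteoglycan decorin, had 1165, 1115, 509 and 571 FPKM in pericyte libraries 1 to 4. Its order over the pericyte libraries differed from that of Gsn, for which replicate 4 was the highest. Lum, the gene of a related proteoglycan, had 51.1 to 139.5 FPKM in pericyte libraries and 1131 to 1971 FPKM in SMC libraries. Col3a1 had 63.1 to 129.8 FPKM and 718 to 1794 FPKM. Over the 9 fibroblast markers the sum was 817 to 1670 FPKM in pericyte libraries and 4196 to 5581 FPKM in SMC libraries. The part of fibroblast, T cell or B cell content in the Gsn values was not tested.

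The genes most like Gsn over the 8 libraries were ranked by Pearson's r of log2(FPKM + 1) among 7040 genes averaging 10 FPKM or more, as a description only, since it rests on the pattern that chose Gsn and on its values of 0. Ccr9, Cd5, Stap1 and Cybasc3 were among the leading 5. Ccr9 is a chemokine receptor of T cells, and Cd5 is a surface protein of T cells and some B cells. Ccr9 had 23.3 to 33.7 FPKM in pericyte libraries and 1.01 to 1.15 FPKM in SMC libraries. Cd5 had 46.1 to 64.6 FPKM and 0.501 to 0.877 FPKM. The libraries fall into the same pair of groups for all of these genes, so likeness measures mainly the gap between the groups, and 535 genes reached an r of at least 0.95 with Gsn.

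**Figure D2:**
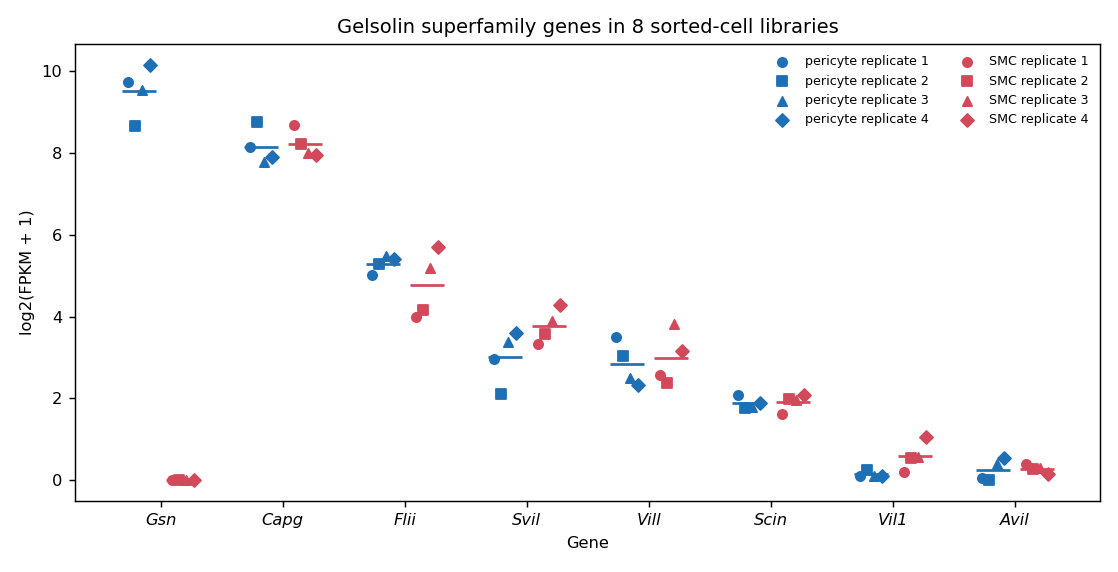
Expression of the 8 gelsolin superfamily genes as log2(FPKM + 1), with 4 pericyte libraries in blue, 4 SMC libraries in red, a marker shape per replicate number and a line at each group mean. Gsn separates the groups, with 4 SMC libraries listed at 0, and the other 7 genes overlap between the groups.

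The remaining 7 genes were compared between pericytes and SMCs with limma on log2(FPKM + 1), on which changes of weakly expressed genes are compressed. None had a q value (Benjamini-Hochberg adjusted over 27414 genes) below 0.05, so 0 were higher in pericytes and 0 higher in SMCs. Over all genes tested, 10.6% were higher in pericytes and 11.2% higher in SMCs (21.8% either way), and among genes averaging 1 FPKM or more 19.7% and 19.5%. Without adjustment, 1 of the 7 (Vil1) was below 0.05 in limma, as were 31.8% of all genes tested. The groups overlapped for all 7. Among all genes tested 24.6% did not overlap, with 12.1% having every pericyte library and 12.5% every SMC library on top, and among genes averaging 1 FPKM or more these shares were 21.4% and 20.8%. The median log2 fold change, pericytes over SMCs, was -0.06 over the 7 genes and 0.02 over all genes tested. A q value above the threshold does not show that levels were equal, and the 95% interval of each difference is given below.

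Capg, the capping protein without severing activity, was by far the most abundant of the 7 genes and differed little in mean. Its gene is on chromosome 6 from 72494385 to 72512977 on the plus strand. Pericyte libraries 1 to 4 had 284, 434, 219.9 and 239 FPKM, and SMC libraries 1 to 4 had 414, 296, 257 and 245 FPKM. The highest library of each group was replicate 2 in pericytes and replicate 1 in SMCs, and replicates 3 and 4 were the lowest in both. Means were 294 ± 96.9 FPKM for pericytes against 303 ± 77.0 FPKM for SMCs (SD, n = 4 each). Pericytes over SMCs, the log2 fold change was -0.06 (standard error 0.26, 95% interval -0.66 to 0.54, limma q = 0.900), which bounds the change between 0.632 and 1.45 times. CapG is well known from macrophages, and 7 macrophage markers summed to 906 to 1895 FPKM in pericyte libraries and 1070 to 1707 FPKM in SMC libraries. Most of this sum was Lyz2, with 656 to 1640 FPKM and 778 to 1317 FPKM. Of the 7 markers, 3 (Fcgr1, Mrc1 and Cd14) were higher in every SMC library and 0 in every pericyte library. Replicate 2 was the highest of the pericyte libraries for this sum too (1895 FPKM), but replicate 4 was the highest of the SMC libraries (1707 FPKM). Pericyte replicate 2 also had the largest FPKM total (1190435, against 690247 to 782014 in the other pericyte libraries), and these values are not scaled for it. By rank among all genes, Capg stood at 418, 473, 533 and 550 in pericyte libraries 1 to 4, so replicate 2 did not lead. In pericytes, Lyz2 and Cd14 were highest in replicate 2, whereas Csf1r, Fcgr1 and Mrc1 were lowest there and Emr1 and Cd68 were highest in replicate 4. The part of macrophage content in the Capg level was not tested.

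Capg made up 78.5% to 89.5% of the summed FPKM of the 7 genes in pericyte libraries and 75.0% to 92.9% in SMC libraries. With Gsn included, Gsn made up 45.5% to 79.3% of the family sum in pericyte libraries, the lowest share being in replicate 2, where Capg was above Gsn.

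Scin, the closest relative of gelsolin in domain structure and likewise a severing protein, had low and even levels. The gene is on chromosome 12 from 40786356 to 40860815 on the minus strand. Scin in pericyte libraries 1 to 4 was at 3.21, 2.38, 2.45 and 2.67 FPKM, and SMC libraries 1 to 4 had 2.09, 2.93, 2.90 and 3.24 FPKM. The whole range over 8 libraries was 2.09 to 3.24 FPKM, and the extremes were both SMC libraries. For Scin the log2 fold change was -0.04 (standard error 0.12, 95% interval -0.32 to 0.24, limma q = 0.866), or between 0.801 and 1.18 times. Of the 7 intervals this was the narrowest, on a scale that compresses low values.

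Flii was the third gene of the family by level in pericytes and varied mostly among SMC libraries. Flii is on the minus strand of chromosome 11, from 60527625 to 60540765. Pericyte libraries 1 to 4 had 31.3, 38.0, 43.5 and 41.5 FPKM, a range of 1.39 times. SMC libraries 1 to 4 had 15.0, 16.9, 35.7 and 51.0 FPKM, a range of 3.40 times. SMC replicates 1 and 2 lay below every pericyte library, SMC replicate 3 lay among the pericyte libraries, and SMC replicate 4 lay above them all. For Flii the log2 fold change was 0.53 (standard error 0.39, 95% interval -0.38 to 1.44, limma q = 0.434). The 2 flightless-interacting partners Lrrfip1 and Lrrfip2 did not pass the test either.

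The Flii gene overlaps Llgl1 on the opposite strand by 64 exonic bases out of 5039, and whether fragments were counted by strand is not given in the sources used here. Llgl1 had 5.62, 3.83, 10.6 and 10.9 FPKM in pericyte libraries 1 to 4 and 4.35, 5.27, 11.3 and 9.64 FPKM in SMC libraries 1 to 4. The part of reads from Llgl1 in the Flii values was not tested.

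Svil, a membrane-linked scaffold for actin and myosin II, had the lower mean in pericytes. Spanning 4920538 to 5119297 on the plus strand of chromosome 18, with up to 40 exons in a transcript, it is the longest gene of the family. Pericyte libraries 1 to 4 had 6.83, 3.29, 9.31 and 11.2 FPKM, and SMC libraries 1 to 4 had 9.07, 10.9, 13.8 and 18.3 FPKM. The groups overlapped through pericyte replicates 3 and 4 and SMC replicates 1 and 2. In all 4 pairs of one number the SMC value was above the pericyte value, but the numbers were not taken to pair the libraries. In both groups replicates 3 and 4 were above replicates 1 and 2. The log2 fold change was -0.75 (standard error 0.36, 95% interval -1.59 to 0.08, limma q = 0.202). With replicates 1 and 2 against 3 and 4 as a covariate, the same difference had a limma q of 0.0428. This was the only setting of 17 alternatives in which Svil passed (limma q from 0.0428 to 0.397 over all of them). The split matches the order just given for Svil and is not in the labels. Over all genes it raised the number higher in SMCs from 3060 to 3929 of 27414. Muscle has a longer form of supervillin, and 6 skeletal muscle fiber markers summed to 13.2 to 21.2 FPKM in pericyte libraries and 17.7 to 29.9 FPKM in SMC libraries. Of these 6, 3 (Ttn, Myh1 and Myh4) were under 1 FPKM in every library, and Acta1 had 8.81 to 15.5 FPKM over the 8 libraries. Smooth muscle markers summed to 590 to 1892 FPKM in pericyte libraries and 1775 to 5703 FPKM in SMC libraries. Their part in the Svil values was not tested.

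Vill was measured at a moderate level and in a different order of replicates in each group. Vill is on chromosome 9 from 118961896 to 118980643 on the plus strand. Values in pericyte libraries 1 to 4 were 10.3, 7.22, 4.68 and 4.0 FPKM, and SMC libraries 1 to 4 had 4.97, 4.21, 13.2 and 7.93 FPKM. Replicates 1 and 2 were the higher ones in pericytes and replicates 3 and 4 the higher ones in SMCs, so each group led in 2 of the 4 same-numbered pairs. The log2 fold change was -0.14 (standard error 0.39, 95% interval -1.05 to 0.76, limma q = 0.846).

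Vil1, the villin of intestinal and renal brush borders, stayed near the bottom of the scale. The villin gene is on chromosome 1 from 74455950 to 74482133 on the plus strand. Levels in pericyte libraries 1 to 4 were 0.0720, 0.193, 0.0693 and 0.0665 FPKM, and SMC libraries 1 to 4 had 0.140, 0.462, 0.482 and 1.09 FPKM. The groups overlapped through pericyte replicate 2 and SMC replicate 1. In all 4 pairs of one number the SMC value was above the pericyte value, though these numbers were not taken as pairs. The log2 fold change was -0.46 (standard error 0.17, 95% interval -0.86 to -0.05, limma q = 0.114). Without SMC replicate 1 it was -0.59 with a limma q of 0.0348, while without SMC replicate 4 it was -0.30 with a limma q of 0.143. With a pseudocount of 0.1 it was -1.51 (limma q = 0.0528). Epithelial markers summed to 20.5 to 85.6 FPKM in pericyte libraries and 45.3 to 713 FPKM in SMC libraries. SMC replicate 3 had the highest epithelial sum (713 FPKM) and SMC replicate 4, with the highest Vil1, had the lowest of the SMC libraries (45.3 FPKM). The part of epithelial content in the Vil1 values was not tested. Vil1 shares 50 exonic bases with Usp37 on the opposite strand, which had 10.5 to 18.7 FPKM, and at these levels the part of such reads in the Vil1 values was not tested.

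Avil, the advillin of sensory neurons and some epithelial cells, was under 1 FPKM in every library. Avil is on chromosome 10 from 126437765 to 126458050 on the plus strand. Pericyte libraries 1 to 4 had 0.0297, 0, 0.313 and 0.453 FPKM, the second being listed at 0, and SMC libraries 1 to 4 had 0.304, 0.212, 0.229 and 0.109 FPKM. Pericyte replicates 1 and 2 were below, and replicates 3 and 4 above, all SMC libraries. The log2 fold change was -0.03 (standard error 0.14, 95% interval -0.35 to 0.29, limma q = 0.900). Avil shares 165 exonic bases with Tsfm on the opposite strand, which had 13.6 to 28.0 FPKM.

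**Figure D3:**
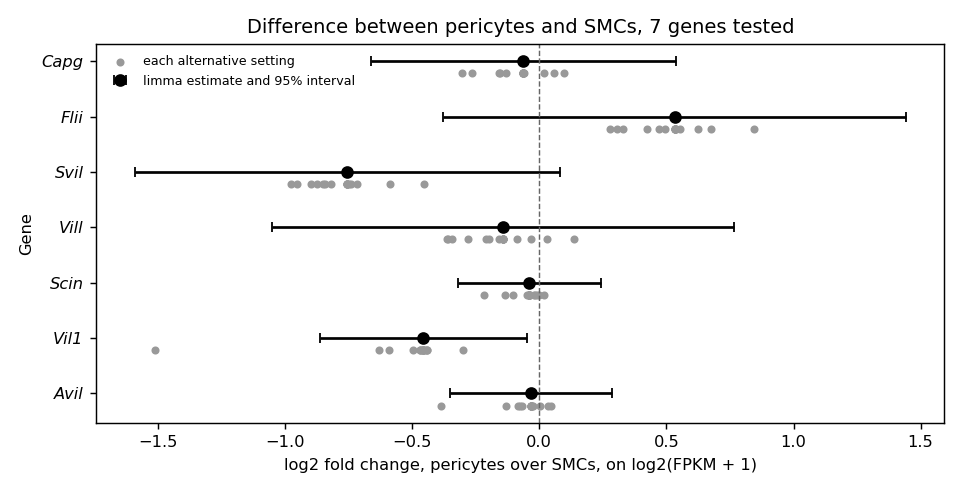
Log2 fold change, pericytes over SMCs, on log2(FPKM + 1) for the 7 genes tested; black points and bars are the limma estimate and its 95% interval, and grey points are the estimates under the alternative settings. The interval of Vil1 alone leaves out 0 before adjustment (-0.86 to -0.05), and the grey points of Capg, Scin, Avil and Vill fall on both sides of 0.

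The order of levels, which FPKM allow because they are scaled by transcript length, was largely shared by the groups. In SMC libraries it was Capg, Flii, Svil, Vill and Scin in all 4 libraries, followed by Vil1 and Avil, whose ranges overlapped. In pericyte libraries Gsn was above Capg in 3 of 4 libraries, with overlapping ranges, and Capg was above Flii in 4 of 4. The mean of Capg was 7.63 times that of Flii in pericytes and 10.2 times in SMCs. Svil and Vill overlapped in range in both groups and were in either order in pericytes, 2 libraries each way. Scin was above Vil1 in every library, and 5 of the 8 genes were above 1 FPKM in all 8 libraries, namely Capg, Flii, Svil, Vill and Scin.

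The gelsolin family acts on filaments that other proteins build, cap and cross-link, so 81 other genes of actin and its regulators were compared in the same fit. Of these, 26 were higher in pericytes (32.1%, against 10.6% of all genes tested) and 7 higher in SMCs (8.64%, against 11.2%), and 48 did not pass. Among genes averaging 1 FPKM or more, the background shares were 19.7% and 19.5%. The number higher in SMCs depended on the setting, at 14 of 71 genes with a filter at 1 FPKM, 13 with the replicate block and 12 with replicates 1 and 2 against 3 and 4 as a covariate. Over all genes, these settings put 3040 of 13349, 3175 of 27414 and 3929 of 27414 higher in SMCs. In the main fit it was 3060 of 27414. The median log2 fold change over the list was 0.23, against 0.02 over all genes tested. With each library rescaled to a common sum, 22 were higher in pericytes and 11 higher in SMCs, and the list's median became 0.01. That rescaling moved the median of genes averaging 1 FPKM or more by -0.21, and the share of all calls that were higher in pericytes from 48.8% to 36.2%. Ssh2 has 2 overlapping gene models in the table, of which the longer is used here, so its values are uncertain.

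Severing proteins outside the family moved in both directions. Dstn, the actin depolymerising factor destrin, averaged 235 ± 84.4 FPKM across pericyte and 785 ± 328 FPKM across SMC libraries (SD, n = 4 each), and Cfl2, the muscle form of cofilin, had 15.3 ± 0.43 FPKM and 34.2 ± 4.75 FPKM (SD, n = 4 each). Both were higher in SMCs (limma q = 0.0142 and 3.7e-04). Among the same 9 cofilins and cofactors, 4 were higher in pericytes (44.4%, against 10.6% of all genes and 19.7% of those averaging 1 FPKM or more), namely Cfl1, Wdr1, Coro1a and Gmfg. The 2 higher in SMCs were 22.2%, against 11.2% and 19.5%. Cfl1 kept that call in 8 and Wdr1 in 7 of the 17 alternative settings. Coro1a, the coronin of leukocytes, had 1188, 1588, 1025 and 1086 FPKM in pericyte libraries 1 to 4 and 66.7, 68.4, 33.3 and 34.4 FPKM in SMC libraries. On the log2 scale pericytes were higher by 4.62 (standard error 0.29, limma q = 6.9e-05). For Gmfg, a glia maturation factor found mostly in blood cells, the difference was 3.76 (standard error 0.25, limma q = 8.6e-05). These genes moved to the same side as the T cell and B cell sums above, and the part of those cells was not tested.

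Barbed end cappers, which compete with gelsolin and CapG for the same filament end, were called in both directions, with 4 of 8 higher in pericytes (against the same 10.6% and 19.7%), 1 higher in SMCs (against 11.2% and 19.5%) and 3 (Add1, Add3 and Eps8) not passing. Eps8 passed as higher in SMCs with the replicate block (limma q = 0.0383), the covariate and the filter at 1 FPKM, and Add3 as higher in pericytes without pericyte replicate 2 (limma q = 0.00251). The 4 genes higher in pericytes lay on the side of the T cell and B cell sums, whose part was not tested. The heterodimeric capping protein subunits Capza1, Capza2 and Capzb and the twinfilin Twf2 were those higher in pericytes, and Twf1 was higher in SMCs. Capza2 kept the call in 12 of the 17 alternatives and the others named in all of them. Capza1 averaged 276 ± 46.0 FPKM across pericyte and 106 ± 13.6 FPKM across SMC libraries (SD, n = 4 each), a difference of 1.37 on the log2 scale (standard error 0.15, limma q = 7.2e-04). For Twf2 the difference was 1.19 (standard error 0.21, limma q = 0.00647). At the pointed end, Tmod2 was the only 1 of 5 tropomodulins and leiomodins to pass (against 11.2% and 19.5%), at 2.18 ± 0.84 FPKM against 13.4 ± 2.90 FPKM in SMCs (SD, n = 4 each, limma q = 7.3e-04). Tmod1 also passed as higher in SMCs with the replicate block (limma q = 0.0360) and with the covariate of replicates 1 and 2 against 3 and 4 (limma q = 0.0173).

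Of the 9 Arp2/3 complex genes, which nucleate branched filaments, 7 were higher in pericytes (77.8%, against 10.6% of all genes and 19.7% of those averaging 1 FPKM or more) and 0 in SMCs, and Arpc1a and Arpc5l did not pass. They lay on the same side as Ptprc and the T cell and B cell sums given above, whose part in these values was not tested. Under the 17 alternative settings 7 or 8 of the 9 passed in the same direction. Actr3, an actin-related subunit, averaged 391 ± 70.3 FPKM across pericyte and 139 ± 17.6 FPKM across SMC libraries (SD, n = 4 each), a difference of 1.48 on the log2 scale (standard error 0.16, limma q = 7.3e-04). For Arpc3 the difference was 1.42 (standard error 0.25, limma q = 0.00660).

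Among the 6 monomer binders, Pfn1, Tmsb4x and Tmsb10 were higher in pericytes (against 10.6% of all genes and 19.7% of those averaging 1 FPKM or more) and Pfn2 was higher in SMCs (against 11.2% and 19.5%), the call for Tmsb4x being kept in 9 of the 17 alternatives. Tmsb10, a thymosin that holds actin monomers, averaged 1260.0 ± 569 FPKM against 292 ± 76.3 FPKM in SMCs (SD, n = 4 each, limma q = 0.00325). Pfn2, a profilin, had 4.90 ± 1.81 FPKM and 25.1 ± 9.33 FPKM (SD, n = 4 each, limma q = 0.00291). With the replicate block Cap1 also passed as higher in pericytes (limma q = 0.0218) and Cap2 as higher in SMCs (limma q = 0.0145), the latter in 5 alternatives in all. Of 11 elongators and formins 5 were higher in pericytes (45.5%, against the same 10.6% and 19.7%), led by Evl with 19.6 ± 4.46 FPKM against 1.04 ± 0.16 FPKM (SD, n = 4 each, limma q = 1.9e-05) and Fmnl1, a formin of blood cells, with 17.6 ± 8.07 FPKM against 1.5 ± 0.59 FPKM (SD, n = 4 each, limma q = 0.00178). Diap3, also among the 5, kept the call in 11 of the 16 alternatives that gave it a value. With the replicate block 4 genes of this role were higher in pericytes. No gene of this role was higher in SMCs, but Fmnl2 passed there with the replicate block (limma q = 0.0386), a common sum, and without SMC replicate 4 or pericyte replicate 2. The genes higher in pericytes too lay on the side of the T cell and B cell sums, and the part of those cells was not tested.

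Of 10 crosslinkers and bundlers 8 did not pass, and the 2 that did, a share near the 21.8% of all genes, were plastins with opposite directions. Fscn1 and Flnc also passed as higher in SMCs with the replicate block (limma q = 0.0419 and 0.0301) and with the filter at 1 FPKM, and Fscn1 also with the covariate and without pericyte replicate 4. The remaining plastin, Pls1, had 0.832 FPKM in pericytes and 0.853 FPKM in SMCs on average (limma q = 0.847). Lcp1, the leukocyte plastin, averaged 398 ± 132 FPKM across pericyte and 39.9 ± 14.5 FPKM across SMC libraries (SD, n = 4 each), a difference of 3.28 on the log2 scale (standard error 0.35, limma q = 7.2e-04). Ptprc and the T cell and B cell sums lay on the same side, and their part was not tested. Pls3, the plastin of solid tissues, averaged 28.6 ± 10.7 FPKM across pericyte and 199.6 ± 48.9 FPKM across SMC libraries (SD, n = 4 each), a difference of -2.82 (standard error 0.32, limma q = 9.6e-04). Tpm1 was the only tropomyosin of 4 to pass (against 11.2% of all genes and 19.5% of those averaging 1 FPKM or more), at 144 ± 63.2 FPKM against 459 ± 199 FPKM in SMCs (SD, n = 4 each, limma q = 0.0203). It lost the call when pericyte replicate 1, pericyte replicate 3 or SMC replicate 3 was left out (limma q = 0.0544, 0.0569 and 0.0572). Tpm2 passed as higher in SMCs with the filter at 1 FPKM (limma q = 0.0239) and a common sum (limma q = 0.0335). The genes higher in SMCs here, namely Pls3, Tpm1, Dstn, Cfl2, Tmod2, Pfn2 and Twf1, lay on the side of the fibroblast, endothelial and pericyte marker sums. The smooth muscle sum, at 590 to 1892 FPKM in pericyte and 1775 to 5703 FPKM in SMC libraries, reached its highest values there too. The part of each of these sums was not tested. None of the 6 actin genes passed, but Acta2 did as higher in SMCs with the filter at 1 FPKM, quantile scaling or a common sum (limma q = 0.0316, 0.0236 and 0.0314). Actb averaged 2026 ± 738 FPKM against 1724 ± 559 FPKM in SMCs (SD, n = 4 each, limma q = 0.726), and Acta2, the smooth muscle actin, differed by -1.43 on the log2 scale (standard error 0.52, limma q = 0.0979). Among 7 cofilin kinases and phosphatases, 2 were higher in pericytes (28.6%, against 10.6% and 19.7%), on the side of the T cell and B cell sums, whose part was not tested. Limk1 (log2 fold change 0.86, limma q = 0.0425) and Ssh2 (log2 fold change 2.39, limma q = 0.0430) passed, and each lost that call in 8 or more of the 17 alternative settings. None of the 4 genes of the serum response factor axis passed, but its coactivators Mkl1, as higher in pericytes, and Mkl2, as higher in SMCs, each did in 7 alternatives.

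**Figure D4:**
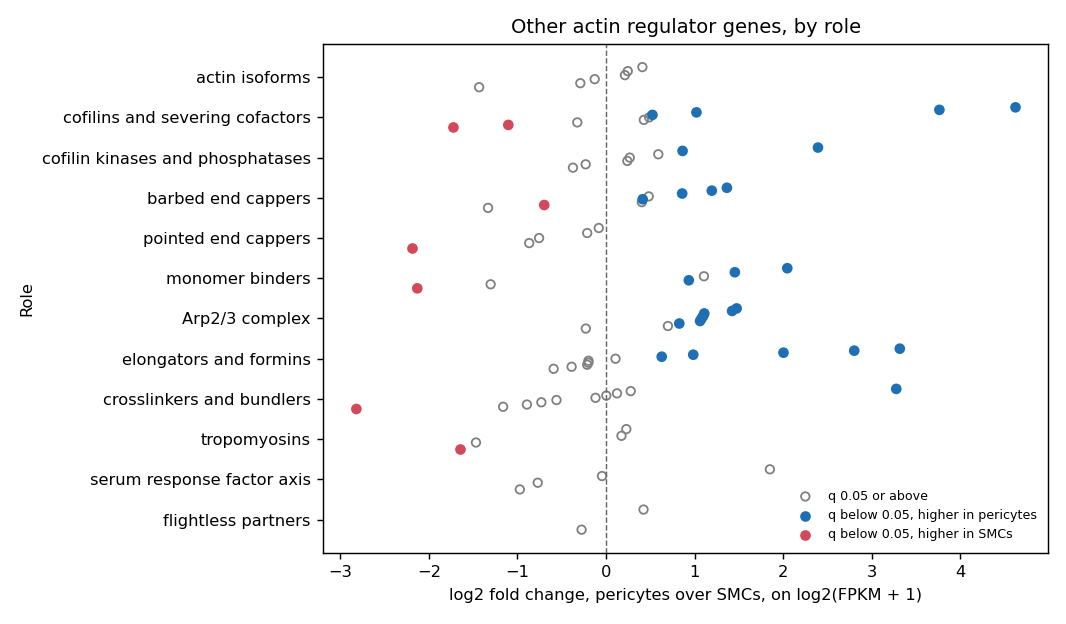
Log2 fold change, pericytes over SMCs, of 81 other actin regulator genes by role; each point is a gene, filled blue (26 genes) or red (7 genes) where the limma q value was below 0.05. All filled points of the Arp2/3 complex lie to the right of 0, and cofilins, barbed end cappers and bundlers have filled points on both sides.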

How the data were processed

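RNA was reverse transcribed and amplified with SMART-Seq chemistry for low input, and libraries were built with Nextera XT. The authors aligned reads to NCBI Build 37 with Bowtie2 and TopHat guided by Ensembl gene models, and the deposited table gives FPKM per gene in each library, with no log transformation and no filter. The program that computed FPKM is not given in the sources used here. The labels give the same batch for all 8 libraries. Library FPKM summed to between 656405 and 1190435. The fragment number behind a value is unknown, and counting error cannot be stated, but ratios of values under 0.3 FPKM put the largest relative depth at 1.24 times the smallest.

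Log2(FPKM + 1) was tested with limma 3.58.1 (lmFit, eBayes) in R 4.3.3 with Benjamini-Hochberg adjustment over 27414 genes above 0 in at least 1 library. The test was checked on simulated data. P-values measure the spread between pooled libraries. Positions came from GENCODE version 1 for mouse, of the same build, and 37195 of the 37979 gene identifiers are in it. Values were summarised in Python 3.11.15 with pandas 2.3.3, with plots in matplotlib 3.10.9.

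The members, gene lists and tests were chosen with earlier results of these data known. Named genes were the 8 members, the 2 largest passing changes of each actin role, the 5 genes most like Gsn and the genes behind the sort. 1 gene under this rule is not reported here. Dstn, Cfl2 and other passing genes named without being among these were chosen after their values were seen. So were Lum, Col3a1, Dcn, Ubb, the single macrophage and muscle fiber markers and the genes beside or overlapping members. Alternatives changed the pseudocount to 0.1, kept only genes reaching 1 FPKM in 4 or more libraries, used quantile, common-sum (TPM) and median-ratio scaling, added a replicate block, took replicates 1 and 2 against 3 and 4 as a covariate, let the variance follow intensity, dropped genes at 0 throughout a group, and left out each library in turn.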

Additional observations from a re-analysis of the deposited data

Results flagged for a closer look

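Of 15 sets of 4 libraries examined (8 genes in pericytes and 7 in SMCs), 1 had a library far from the others. Vil1 was at 0.193 FPKM in pericyte replicate 2, and its gap to the next library was 0.957 of the whole range, above the 95% limit of Dixon's test for 4 libraries. The other pericyte libraries had 0.0665 to 0.0720 FPKM. Chance gives about 1 such set in 20.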

How the results depend on the processing

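The count of 0 family genes higher in pericytes (Gsn not included) held under all 17 alternatives. The count higher in SMCs became 1 with replicates 1 and 2 against 3 and 4 as a covariate (Svil), and ranged from 0 to 1 with each library left out (1 without SMC replicate 1, Vil1). The 81 actin regulators gave 20 to 29 genes higher in pericytes, against 26 in the report, where 2917 of 27414 genes in all were higher. The 29 came with the covariate, which put 3794 of 27414 genes higher in pericytes. The 20 came without SMC replicate 2, where 2370 of 27073 genes were. The number higher in SMCs, 7 in the report, became 14 with a filter at 1 FPKM in 4 libraries, 11 with a common sum, 13 with the replicate block and 12 with the covariate, and ranged from 6 to 9 with each library left out. All genes higher in SMCs, 3060 of 27414 in the report, became 3040 of 13349 with that filter. They became 3734 of 27414 with a common sum, 3175 with the replicate block and 3929 with the covariate. As a check of pairing, deviations from the group mean were correlated over genes between libraries of one number, giving 0.327 on average, but pair 1 had 0.0794, so the numbers were not taken to pair the libraries. With the replicate block the family counts stayed at 0 and 0, and Svil had q = 0.0794 (limma). In that setting 25 actin regulators were higher in pericytes, as were 2978 of 27414 genes in all. Of 8 libraries, 5 correlated best with their own number.

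Differences near 0 changed sign with 1 library left out. Scin was between -0.13 and 0.02, reaching 8.3e-04 and 0.019 without pericyte replicate 2 and SMC replicate 4. Capg was between -0.27 and 0.10, reaching 0.06, 0.02 and 0.10 without pericyte replicates 3 and 4 and SMC replicate 1. Avil was between -0.13 and 0.05, reaching 0.03, 0.048 and 0.002 without pericyte replicates 1 and 2 and SMC replicate 1. Vill was between -0.36 and 0.14, reaching 0.03 and 0.14 without pericyte replicate 4 and SMC replicate 3. The cause was not tested. Vil1, Svil and Flii kept their sign in every setting that gave a value, while Vil1 and Avil had none under the 1 FPKM filter. With each library left out, Vil1 was between -0.59 and -0.30, Svil between -0.95 and -0.45 and Flii between 0.28 and 0.84. The pericyte median of Gsn, 799.7 FPKM, ranged from 749.8 to 849.5 FPKM with each pericyte library left out and was 1137 TPM on a common sum. Levels near or under 1 FPKM, as for Vil1 and Avil, limit precision. With a pseudocount of 0.1 the log2 fold change of Vil1 was -1.51 (limma q = 0.0528) and that of Avil was -0.39 (limma q = 0.683).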
